A study of Mus musculus with 9 samples.

Results

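The genes described here are Ucma, Mgp and Gas6, which encode proteins that depend on vitamin K, and Ggcx and Vkorc1, which encode the enzymes that make these proteins functional. They were taken as every array probe set annotated to 1 of these genes and to no other gene. This gave 8 probe sets for the 5 genes, out of 34945 probe sets for 18193 genes in all. The set was chosen by gene name with the layer differences of these same arrays already known, so the signals of the 5 genes in the 3 layers count as the values that chose them. They are given as a description with no p-value, and where the 5 genes are counted against the threshold used for all genes, the count describes them and supports nothing.

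Messenger RNA was measured on 9 arrays of proximal tibial growth plates from wild-type Black Swiss mice killed at birth (age 0 days). The growth plate is the cartilage that lengthens a bone, and its chondrocytes pass from small round cells near the joint through stacked flat cells to enlarged hypertrophic cells next to the forming bone. The round, flat and hypertrophic layers were cut by hand from frozen sections, with no sorting of cells, and a sample was a pool of 18 to 20 tibiae from 1 litter (9 to 10 pups, sex not recorded). The study used 3 litters as its biological triplicate, so the arrays that carry 1 replicate number were taken as 1 litter; no treatment or mutant was compared.

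Vitamin K is the cofactor with which the gamma-carboxylase Ggcx, an enzyme of the endoplasmic reticulum, turns chosen glutamate residues of secreted proteins into gamma-carboxyglutamate (Gla), a residue that binds calcium. The vitamin is oxidised in the process, and the epoxide reductase Vkorc1, the target of warfarin, returns it to the active form. In cartilage the Gla protein Mgp (matrix Gla protein) is known as an inhibitor of calcification. Ucma, also called Gla-rich protein, is secreted by chondrocytes of the upper zones, and Gas6 is a ligand of the receptor kinases Axl, Tyro3 and Mertk.

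Promoter sequences were found for 4 of the 5 genes in RefSeq's table (build GRCm38.p6), and 3 are shown because these genes had different patterns over the layers: Ucma was much lower in each further layer, Gas6 was graded more gently, and Vkorc1 was nearly level. Each is the 250 bases before the gene's annotated start, 5′ to 3′ on the gene's strand. Ucma lies at chr2:4975872-4976121 on the plus strand, Gas6 at chr8:13494536-13494785 on the minus strand and Vkorc1 at chr7:127895618-127895867 on the minus strand. Capitals mark matches to the motifs searched.
Ucma: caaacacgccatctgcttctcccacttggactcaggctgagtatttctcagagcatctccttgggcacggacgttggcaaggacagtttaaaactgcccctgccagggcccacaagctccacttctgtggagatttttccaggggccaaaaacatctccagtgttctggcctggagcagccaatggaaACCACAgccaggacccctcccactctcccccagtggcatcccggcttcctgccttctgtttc
Gas6: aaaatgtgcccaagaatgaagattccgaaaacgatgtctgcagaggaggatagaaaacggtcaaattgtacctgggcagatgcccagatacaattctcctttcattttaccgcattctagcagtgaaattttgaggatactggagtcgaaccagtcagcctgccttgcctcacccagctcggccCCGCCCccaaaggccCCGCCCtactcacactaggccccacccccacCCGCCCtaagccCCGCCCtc
Vkorc1: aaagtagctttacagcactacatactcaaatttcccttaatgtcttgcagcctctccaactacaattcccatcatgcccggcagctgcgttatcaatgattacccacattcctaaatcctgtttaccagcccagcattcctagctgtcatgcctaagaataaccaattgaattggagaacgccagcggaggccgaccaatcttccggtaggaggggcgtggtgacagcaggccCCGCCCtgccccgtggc

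The motifs were TGTGGT (the core bound by RUNX factors, found in 14.0% of 32851 windows of the same length), ATTGTT (a SOX site, 9.42%), TATAAA (the TATA box, 12.4%) and GGGCGG (the GC box, 32.7%), each searched on both strands. The Ucma window held 1 match to the RUNX core, read on the opposite strand as ACCACA from 62 to 57 bases before the start. It held no match to the other 3 motifs. The Gas6 window held 4 matches to the GC box, read as CCGCCC, and the Vkorc1 and Ggcx windows 1 each, with none to the other motifs. The share of G and C was 56.4% in the Ucma window, 54.8% in Gas6, 61.2% in Ggcx and 51.6% in Vkorc1, against a median of 52.4% over all windows. These matches describe letters only.

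Values are MAS5 signals, a linear measure of hybridisation that Affymetrix software computes for each probe set, and all deposited arrays had the same trimmed mean. Median signals were 123 to 152 over the 9 arrays, and their number limits the precision. Differences between layers are on the scale log2(signal + 26), with a standard error (SE) from 1 limma fit over all 11313 genes whose mean lay above 7.212 on that scale (a signal of 122), and with litter as a block. All 5 genes passed that filter, and 7 of the 8 probe sets did. Markers of chondrocytes were present in every layer, and all 8 on the list passed the filter. Past the threshold (an adjusted p of 0.05) that fit had 977 genes (8.64%) with less signal in flat than in round samples, 591 (5.22%) with less in hypertrophic than in flat samples and 1435 (12.7%) with less in hypertrophic than in round samples. Of all calls between the hypertrophic and flat layers 53.9% were higher, and 65.2% after centring each array on its median. These shares were 49.3% and 39.7% between the flat and round layers, and 49.5% and 50.7% between the hypertrophic and round layers. The flat array of litter 3 stood apart for the skeletal muscle markers, and the round array of litter 1 for a high 3'/5' signal ratio of actin (4.25, against 1.45 to 2.06 on the others), a measure of RNA degradation.

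**Figure D1:**
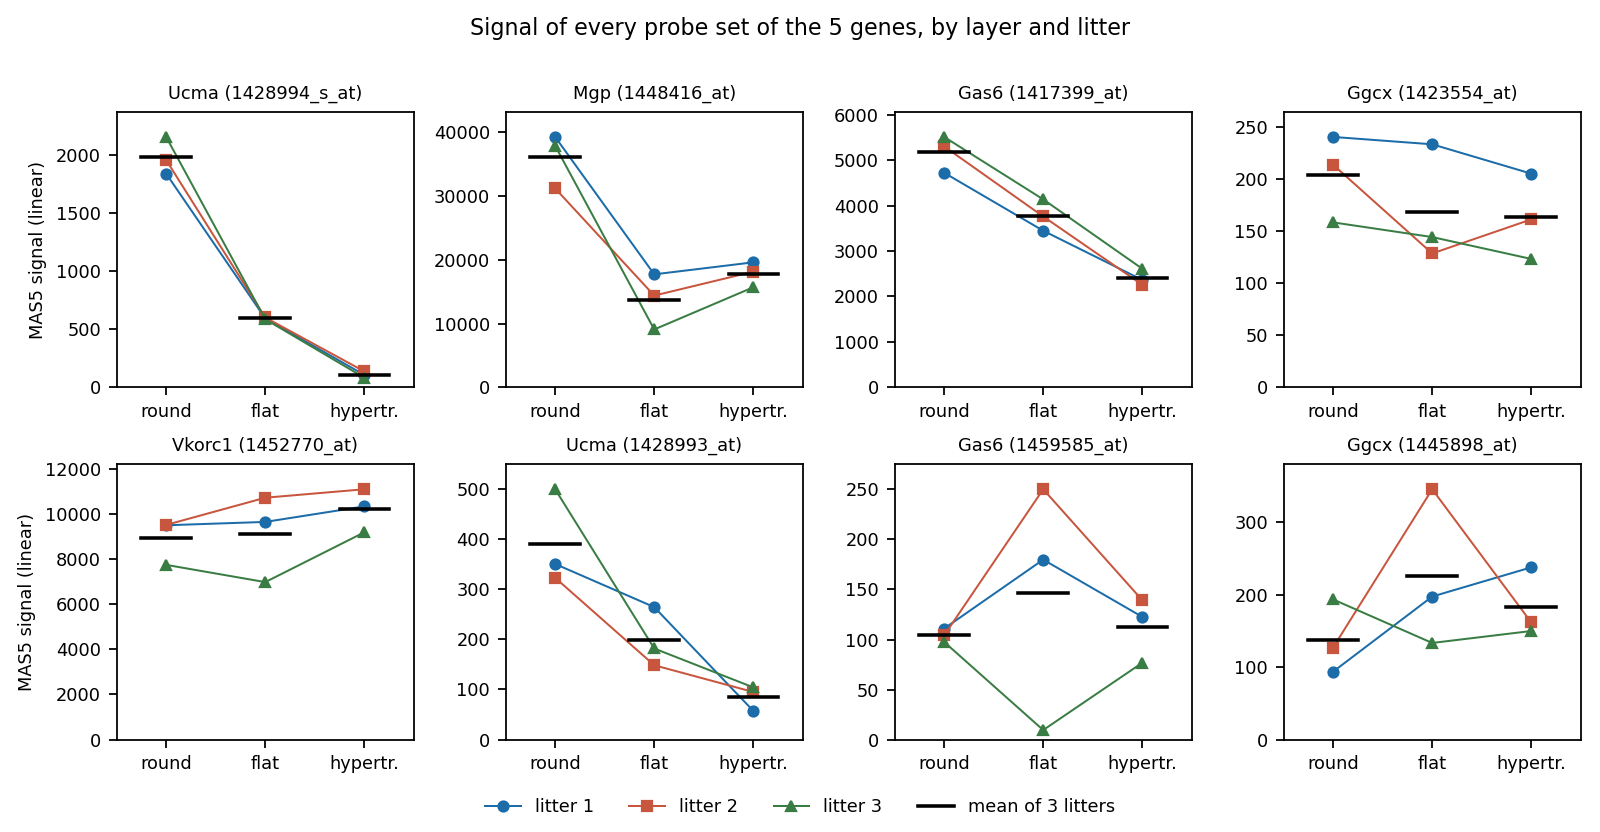
MAS5 signal (linear axis from 0) of the 8 probe sets of the 5 genes in the round, flat and hypertrophic layers; coloured points joined by lines are the 3 litters and black bars the mean of 3 litters. Ucma and Gas6 step down from layer to layer in every litter on their brighter probe set, Mgp is lowest in the flat layer in every litter, and Vkorc1 and Ggcx have overlapping layers.

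Ucma had the widest range of the 5 genes. Its brighter probe set (1428994_s_at) read 1840.2, 1958 and 2157 in the round layer of litters 1, 2 and 3, 593, 601 and 586 in the flat layer and 107, 137 and 83.1 in the hypertrophic layer. No array of a layer overlapped with one of another layer, and the order round, flat, hypertrophic held in all 3 litters. The means were 1985 ± 160.1 (SD, n = 3), 594 ± 7.53 and 109 ± 27.0. On the log2 scale Ucma was lower by 1.70 ± 0.18 (SE, n = 3 litters; a difference of -1.70) from round to flat, and the step from flat to hypertrophic was -2.22 ± 0.18. Over both steps the difference was -3.91 ± 0.18, or 15.1-fold. The distance between the highest and lowest layer mean of Ucma exceeded that of 99.8% of the tested genes. This share was 94.3% for Mgp, 88.9% for Gas6, 31.8% for Ggcx and 17.2% for Vkorc1. These ranks only describe genes chosen with their layer differences known. The hypertrophic signals of Ucma lay near the filter of 122, where the added constant of 26 compresses a fold change. With a constant 4 times as large the last difference was -3.30 ± 0.15.

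The second probe set of Ucma (1428993_at) kept the same order. It read 350.3, 323 and 499 in the round layer, 264, 148 and 182 in the flat layer and 57.3, 95.1 and 104 in the hypertrophic layer. The layers again did not overlap, and the order held in all 3 litters. Its differences were smaller on the log2 scale, at -0.90 ± 0.30 (SE) from round to flat, -1.0005 ± 0.30 from flat to hypertrophic and -1.90 ± 0.30 over both steps.

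Mgp, a small matrix protein that keeps cartilage and artery walls from calcifying, did not follow the same order. Its only probe set (1448416_at) read 39242, 31177 and 37849.8 in the round layer, 17707, 14376 and 9070.3 in the flat layer and 19589, 18127 and 15683 in the hypertrophic layer. The round arrays were above all others. The flat and hypertrophic arrays overlapped, since the flat array of litter 1 was above the hypertrophic array of litter 3, but within each litter the hypertrophic array was the higher one. The means were 36089 ± 4311 (SD, n = 3), 13718 ± 4356 and 17799.7 ± 1973, so that flat was the lowest layer. The log2 difference was -1.44 ± 0.17 (SE) between the flat and round layers, 2.71-fold, and -1.02 ± 0.17 between the hypertrophic and round layers, 2.02-fold.

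The upward step of Mgp from the flat to the hypertrophic layer was 0.42 ± 0.17 (SE; 95% interval 0.06 to 0.79). The hypertrophic signal was 1.11, 1.26 and 1.73 times the flat signal in litters 1, 2 and 3. Litter 3 thus had the largest ratio, through its low flat array. Without that array the step was 0.18 ± 0.14, and the difference between flat and round was -1.19. That array had the highest summed signal of the 10 skeletal muscle markers (342949, against 175070 and 178235 on the other flat arrays). The part of adjoining muscle in the Mgp value was not tested.

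Gas6, a secreted growth arrest protein that carries a Gla domain, was graded with little spread. Its brighter probe set (1417399_at) read 4722, 5303 and 5511 in the round layer, 3446, 3760.3 and 4137 in the flat layer and 2364, 2257 and 2609.9 in the hypertrophic layer. The layers did not overlap, and litter 3 was the highest within each of them. The means were 5179 ± 409 (SD, n = 3), 3781 ± 346 and 2410.3 ± 181. The steps were -0.45 ± 0.11 (SE) from round to flat and -0.64 ± 0.11 from flat to hypertrophic, and -1.09 ± 0.11 over both, 2.14-fold. The size of both steps was alike between litters: the round signal was 1.37, 1.41 and 1.33 times the flat signal, and the flat signal 1.46, 1.67 and 1.59 times the hypertrophic one.

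The other Gas6 probe set (1459585_at) lay below the filter and had no such gradient. It read 111, 104 and 97.6 in the round layer, 179.8, 250.1 and 9.58 in the flat layer and 123, 139 and 76.8 in the hypertrophic layer. The flat arrays spanned both the highest and the lowest value, and all 3 layers overlapped. Its differences were -0.04 ± 0.51 (SE) from round to flat, 0.11 ± 0.51 from flat to hypertrophic and 0.07 ± 0.51 over both steps. With both probe sets averaged, the differences of Gas6 were -0.25 ± 0.24, -0.27 ± 0.24 and -0.51 ± 0.24 in the same order.

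Vkorc1, the reductase that recycles vitamin K, was nearly level. Its probe set (1452770_at) read 9492, 9508 and 7739 in the round layer, 9641, 10712 and 6975 in the flat layer and 10329, 11087 and 9182 in the hypertrophic layer. Litter 3 was the lowest and litter 2 the highest in every layer, and the layers overlapped. The means were 8913 ± 1017 (SD, n = 3), 9109 ± 1924 and 10199 ± 959. The difference between flat and round was 0.01 ± 0.12 (SE; 95% interval -0.24 to 0.27), and its sign turned with either of 2 other scalings (-0.04 and -0.0046) and without the round array of litter 2 (-0.03), the flat array of litter 1 (-0.0075) or the flat array of litter 2 (-0.06). The hypertrophic layer differed from the flat by 0.18 ± 0.12 (95% interval -0.07 to 0.44) and from the round by 0.20 ± 0.12 (-0.06 to 0.45), with the hypertrophic array the highest of its litter in all 3 litters. These intervals are a description, and they do not show that the layers are alike.

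Ggcx, the carboxylase itself, was dim on both of its probe sets. The first (1423554_at) read 240.5, 214 and 158 in the round layer, 233, 129 and 144 in the flat layer and 205, 161 and 123 in the hypertrophic layer. Litter 1 was the highest in every layer, and the layers overlapped, although the round array was the highest of its litter in all 3 litters. The means were 204 ± 41.9 (SD, n = 3), 169 ± 56.5 and 163 ± 41.0. The differences were -0.26 ± 0.27 (SE) from round to flat (95% interval -0.84 to 0.32), -0.03 ± 0.27 from flat to hypertrophic (-0.61 to 0.56) and -0.29 ± 0.27 over both (-0.87 to 0.29).

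The second Ggcx probe set (1445898_at) gave a different sign, with the round array below the flat and below the hypertrophic array in 2 of 3 litters. It read 93.8, 127 and 194 in the round layer, 198, 346 and 134 in the flat layer and 238, 162 and 150.0 in the hypertrophic layer, with overlap between all layers. Flat minus round was 0.57 ± 0.37 and hypertrophic minus round 0.37 ± 0.37 (SE). With both probe sets averaged the differences of Ggcx were 0.15 ± 0.23 from round to flat and 0.04 ± 0.23 from round to hypertrophic, so the direction depends on the probe set. The 2 probe sets thus gave no common order of the layers for Ggcx.

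**Figure D2:**
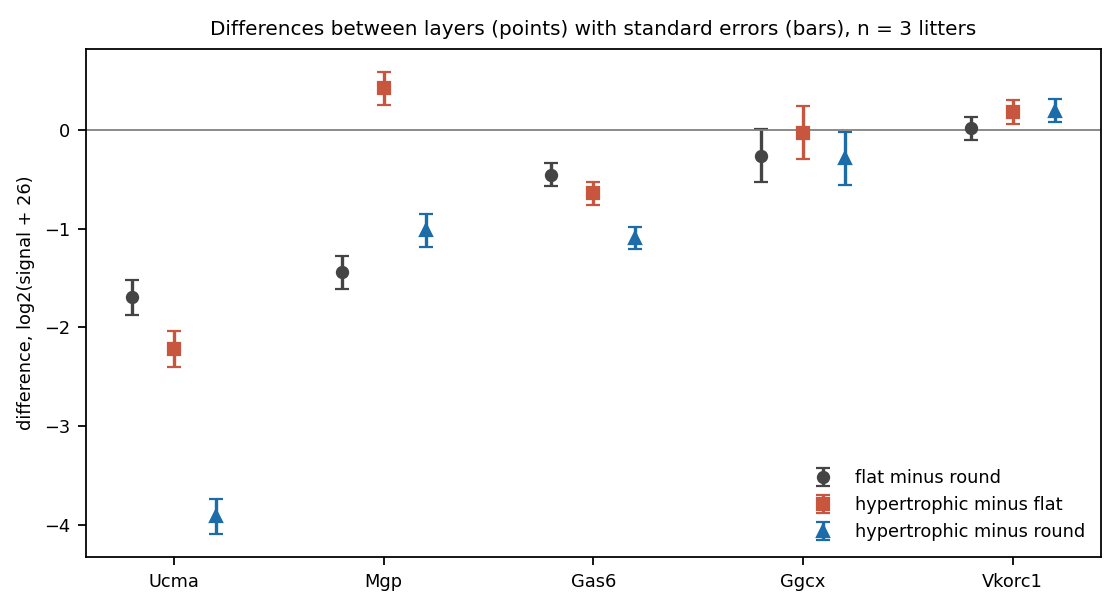
Log2 differences between layers on the scale log2(signal + 26) for the 5 genes, each on its brighter probe set (points), with standard errors (bars) over 3 litters. Ucma spans -3.91 from round to hypertrophic, Gas6 -1.09 and Mgp -1.02, while the points of Ggcx and Vkorc1 lie within 0.29 of 0.

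The 5 genes were also counted. Between the flat and round layers 3 of the 5 genes (Ucma, Mgp and Gas6) were lower past the threshold, beside 8.64% of all tested genes. Between the hypertrophic and flat layers 2 of 5 (Ucma and Gas6) were lower, beside 5.22%, and between the hypertrophic and round layers 3 of 5 (Ucma, Mgp and Gas6), beside 12.7%. None of the 5 was called higher in these 3 comparisons, where 8.39%, 6.12% and 12.4% of all tested genes were. Since the genes were chosen with these differences known, the counts only describe them. The median log2 difference of the 5 genes was -0.45, -0.03 and -1.02 in the same order, and that of all tested genes -0.01, -0.0049 and 0.0062.

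In dissected tissue, fewer cells of a type and less RNA per cell cannot be told apart. Marker lists of other cells were read on the same arrays. Of 10 skeletal muscle markers, 10 were higher in flat than in round samples, with summed signals of 62260.4 to 113861 on the round arrays, 175070 to 342949 on the flat and 61676 to 187629 on the hypertrophic arrays. Of 8 chondrocyte markers, 5 were lower and 1 higher in flat than in round samples, with sums of 99279 to 123821, 67287 to 102565 and 68723 to 76969, and 6 were lower and 0 higher in hypertrophic than in round samples. Of 6 markers of the round layer, 5 were lower in flat than in round samples. Their sums were 31033 to 44734 on the round, 1363 to 2638 on the flat and 971 to 1285 on the hypertrophic arrays. The marker lists, this one included, were written with earlier results of these data known, so their counts are a description. Osteoclast markers moved the other way, with 6 of 7 tested higher in flat than in round samples and 7 of 7 higher in hypertrophic than in flat samples, and sums of 4573 to 5959.9, 12576 to 17427 and 71247 to 94202. Of 5 osteoblast markers tested, 4 were higher in flat and in hypertrophic than in round samples (Sp7, Phex, Dmp1 and Ifitm5). From round to hypertrophic these rose 10.0- to 28.8-fold. The osteoblast sums (63709 to 89245, 67228 to 108202 and 104999 to 122414) were mostly Col1a1, which was called in no comparison. All 4 hypertrophic markers tested were higher in flat and in hypertrophic than in round samples (sums of 6272 to 11039, 26956 to 49579.9 and 94966 to 109103). Fibroblast and perichondrium markers were lower in 2 of 8 and higher in 1 between the flat and round layers. Between the hypertrophic and round layers 4 were lower and 2 higher. Their sums were 159617 to 177823, 136578 to 178544 and 117315 to 134747. Vascular smooth muscle and pericyte markers, cells in which Mgp is also known to be expressed, were lower in 1 and higher in 1 of 7 tested between flat and round and lower in 3 and higher in 1 between hypertrophic and flat, with sums of 26394 to 32259, 26666 to 30948 and 23084 to 25789. Of 8 endothelial markers, 3 were lower in flat than in round samples and 5 higher in hypertrophic than in flat samples, with sums of 11684 to 13883, 9447 to 10873 and 15242 to 16289. The endothelial sums and Mgp were both lowest in the flat layer, but the endothelial sums were highest in the hypertrophic layer and Mgp was highest in the round layer. None of these lists was at 0 on any array, and the part of these cells in the values of the 5 genes was not tested.

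The other genes of the pathway were counted from a list of which 18 were named on the array and 11 passed the filter. That list too was written with earlier results of these data known. The osteocalcin genes Bglap, Bglap2 and Bglap3 were not analysed here. Between the flat and round layers 0 of the 11 passed the limma test (4 at an unadjusted p under 0.05), beside 17.0% of all tested genes. Between the hypertrophic and flat layers 1 of 11 was lower and 0 higher, beside 11.3% called in either direction. Between the hypertrophic and round layers 3 were lower and 1 higher, beside 25.1%. The medians of the 11 were -0.27, -0.07 and -0.27, against -0.01, -0.0049 and 0.0062 over all tested genes.

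Axl, the receptor kinase that Gas6 binds most tightly, was the clearest of them on the brighter of its 2 probe sets. It read 1167, 2569 and 2727 in the round layer of litters 1 to 3, 1185, 1433 and 1658 in the flat layer and 820.4, 788 and 1055 in the hypertrophic layer. The hypertrophic arrays were below all others, while the flat arrays overlapped with the round array of litter 1, which was far below the other round arrays and is the one with the high 3'/5' ratio. Axl fell by 1.17 ± 0.19 on the log2 scale from the round to the hypertrophic layer (SE, n = 3 litters; limma adjusted p = 0.00081), lower in 3 of 3 litters. This call was lost in 1 of 17 alternatives, that with all probe sets averaged (-0.57 ± 0.20, adjusted p = 0.0748, in a range of 7.4e-06 to 0.0748). The second probe set of Axl was not read by itself, and the call rests on the brighter one.

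The steps of Axl between neighbouring layers were less firm. From the flat to the hypertrophic layer Axl fell by 0.67 ± 0.19 (limma adjusted p = 0.0455), but adjusted p was 0.0575 with no filter, 0.0773 after centring each array on its median, 0.238 without the litter block and 0.199, 0.101, 0.0856, 0.258 and 0.175 without the flat array of litter 1, 2 or 3 or the hypertrophic array of litter 2 or 3, in a range of 0.0041 to 0.258 over 17 alternatives, of which 9 kept it past the threshold. Between the round and flat layers the difference was -0.51 ± 0.19 (adjusted p = 0.0973, range 0.00275 to 0.522). Its direction turned with all probe sets averaged (0.23 ± 0.20, adjusted p = 0.522). It was -0.30 ± 0.21 without the round array of litter 2 (adjusted p = 0.424) and -0.81 ± 0.15 without the round array of litter 1 (adjusted p = 0.00275). The part of RNA quality in that step was not tested.

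The other receptors followed in part. Mertk, a receptor of phagocytes, read 2159, 2378 and 1967 in the round layer, 2046, 1730.4 and 1223 in the flat layer and 1917, 1321 and 1422 in the hypertrophic layer, where all arrays were below the round ones. It fell by 0.49 ± 0.16 from round to hypertrophic (SE, limma adjusted p = 0.0395, lower in 3 of 3 litters). Macrophage markers were higher in 3 of 8 (Csf1r, Cd68 and Tyrobp) and lower in 1 (Mrc1) between these layers. Their sums were 11686 to 12969 on the round and 20757 to 26137 on the hypertrophic arrays. Csf1r had the largest part in these sums, with means of 4732 in round and 13322 in hypertrophic samples. The part of macrophages in the Mertk value was not tested. Adjusted p of that difference was over 0.05 in 7 of 17 alternatives (range 0.0042 to 0.253): 0.135 without the litter block, 0.193 and 0.134 without the round array of litter 2 or 3, 0.0521 without the flat array of litter 1, and 0.0631, 0.253 and 0.067 without the hypertrophic array of litter 1, 2 or 3. From round to flat Mertk was at -0.40 ± 0.16 (adjusted p = 0.106, range 0.0268 to 0.381; 0.0268 without the round array of litter 1). Tyro3 read 105 to 243 over all arrays and was at -0.40 ± 0.28, 0.44 ± 0.28 and 0.04 ± 0.28 in the 3 comparisons (limma adjusted p of 0.375, 0.377 and 0.931). All 3 litters had their lowest Tyro3 signal in the flat layer. With all probe sets averaged the differences of Tyro3 were -0.13 ± 0.22, -0.05 ± 0.22 and -0.17 ± 0.22.

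Pros1, which encodes protein S, an anticoagulant Gla protein that activates Tyro3 and Mertk, read 1671, 2084 and 2016 in the round layer, 1569.6, 1604 and 1589 in the flat layer and 1953, 2006 and 1769 in the hypertrophic layer. The flat arrays were below all others and close to each other. The differences were nevertheless small, at -0.27 ± 0.13 from round to flat and 0.26 ± 0.13 from flat to hypertrophic (SE; limma adjusted p of 0.192 and 0.247), and -0.01 ± 0.13 from round to hypertrophic (0.978). The liver-made coagulation proteins with Gla domains, F2, F7, F9, F10, Proc and Proz, were all under the filter, with signals of 4.60 to 190.0, beside 2.48 to 163 for 7 hepatocyte markers.

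Vkorc1l1, the paralog of Vkorc1 that also reduces vitamin K epoxide, increased over the layers on the brighter of its 2 probe sets. It read 342, 559.8 and 555 in the round layer, 707, 682 and 560.2 in the flat layer and 826, 881 and 727 in the hypertrophic layer. The layers did not overlap, although the flat array of litter 3 and the round array of litter 2 nearly met, and the order held in all 3 litters. It rose by 0.74 ± 0.19 from round to hypertrophic (SE; limma adjusted p = 0.0146). Adjusted p was over 0.05 in 3 of 17 alternatives (range 0.0067 to 0.0835), at 0.0577, 0.0835 and 0.0593 without the round array of litter 1 or the hypertrophic array of litter 1 or 2. Without the round array of litter 1, the one with the high 3'/5' ratio, the rise was 0.48 ± 0.17 and the step from round to flat 0.17 ± 0.17. The part of RNA quality in the Vkorc1l1 values was not tested. Its steps of 0.43 ± 0.19 and 0.31 ± 0.19 did not pass (limma adjusted p of 0.162 and 0.368), and the first was 0.26 ± 0.22 without the flat array of litter 1. With all probe sets averaged the step from round to flat was 0.25 ± 0.16 (limma adjusted p = 0.346). The second probe set of Vkorc1l1 was not read by itself. Vkorc1 differed by 0.20 ± 0.12 over the same layers, and whether the 2 reductases differ from each other was not tested.

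Among the transmembrane Gla proteins, single-pass proteins whose outer part carries a Gla domain, 1 of 3 tested passed the threshold. Prrg3 read 1354, 1890.1 and 1580.4 in the round layer, 1081, 1170.04 and 1306 in the flat layer and 773, 1247 and 1223 in the hypertrophic layer. The round arrays were above all others, and the flat and hypertrophic arrays overlapped. It fell by 0.58 ± 0.15 from round to hypertrophic (SE; limma adjusted p = 0.0129), lower in 3 of 3 litters. Adjusted p was over 0.05 in 3 of 17 alternatives (range 0.0106 to 0.0906), at 0.0753 without the litter block and 0.0796 and 0.0906 without the round array of litter 2 or the hypertrophic array of litter 1. Prrg1 and Prrg2 did not pass in any comparison, and Prrg4 was under the filter.

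**Figure D3:**
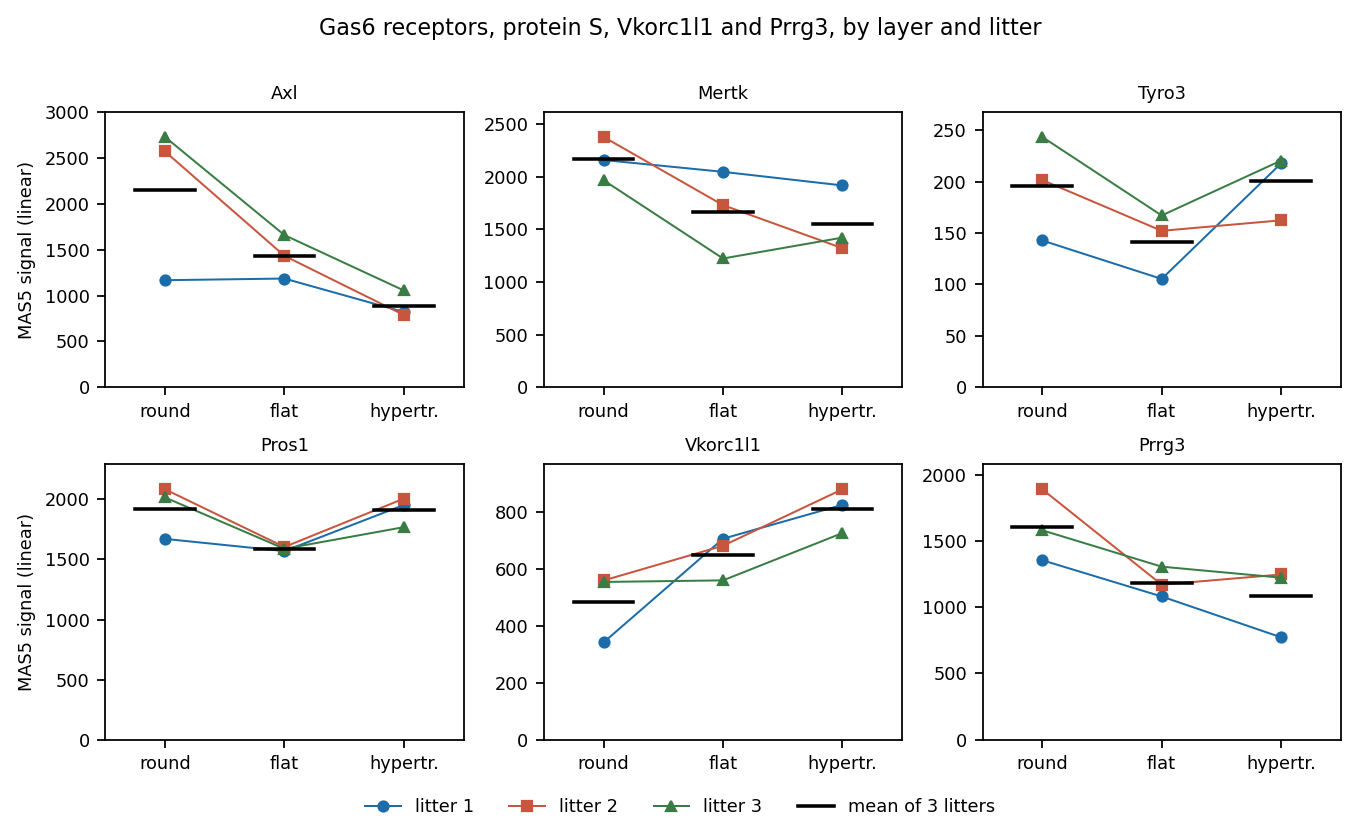
MAS5 signal (linear axis from 0) of Axl, Mertk, Tyro3, Pros1, Vkorc1l1 and Prrg3 in the round, flat and hypertrophic layers; coloured points joined by lines are the 3 litters and black bars the mean of 3 litters. On their brighter probe sets Axl falls to 788 to 1055 in the hypertrophic layer while Vkorc1l1 rises to 727 to 881. The round array of litter 1 lies below the other round arrays for both.

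The genes most like Ucma, Mgp and Gas6 were found among 11308 tested genes by the root mean square difference between gene-centred log2 values over the 9 arrays, a distance that is 0 for equal profiles. For Ucma they were Sox5, a transcription factor that works with Sox9 in chondrocytes (0.23), Cpxm2, a carboxypeptidase-like secreted protein (0.36), and Itgbl1, an integrin beta-like protein (0.38), against a median of 1.63 over all genes. Sox5 had mean signals of 1559 ± 51.2, 446 ± 90.0 and 98.2 ± 26.1 (SD, n = 3) in the round, flat and hypertrophic layers.

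For Mgp the nearest were Cspg4, the NG2 proteoglycan of pericytes and immature chondrocytes (0.15), Mical1, an enzyme that takes actin filaments apart (0.19), and Crim1, a membrane protein that binds growth factors of the BMP family (0.19), against a median of 0.71. Cspg4 had mean signals of 6058 ± 1242, 2311 ± 529 and 2954 ± 314 and so shared the low flat layer, including the lowest value on the flat array of litter 3. For Gas6 they were Pxdn, peroxidasin, which crosslinks collagen IV (0.07), Mturn (0.10) and Slc4a3, an anion exchanger (0.12), against 0.54. Pxdn had mean signals of 5828 ± 171, 4199 ± 136 and 2733 ± 149.6. The genes were chosen for their likeness, so these distances are a description.

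**Figure D4:**
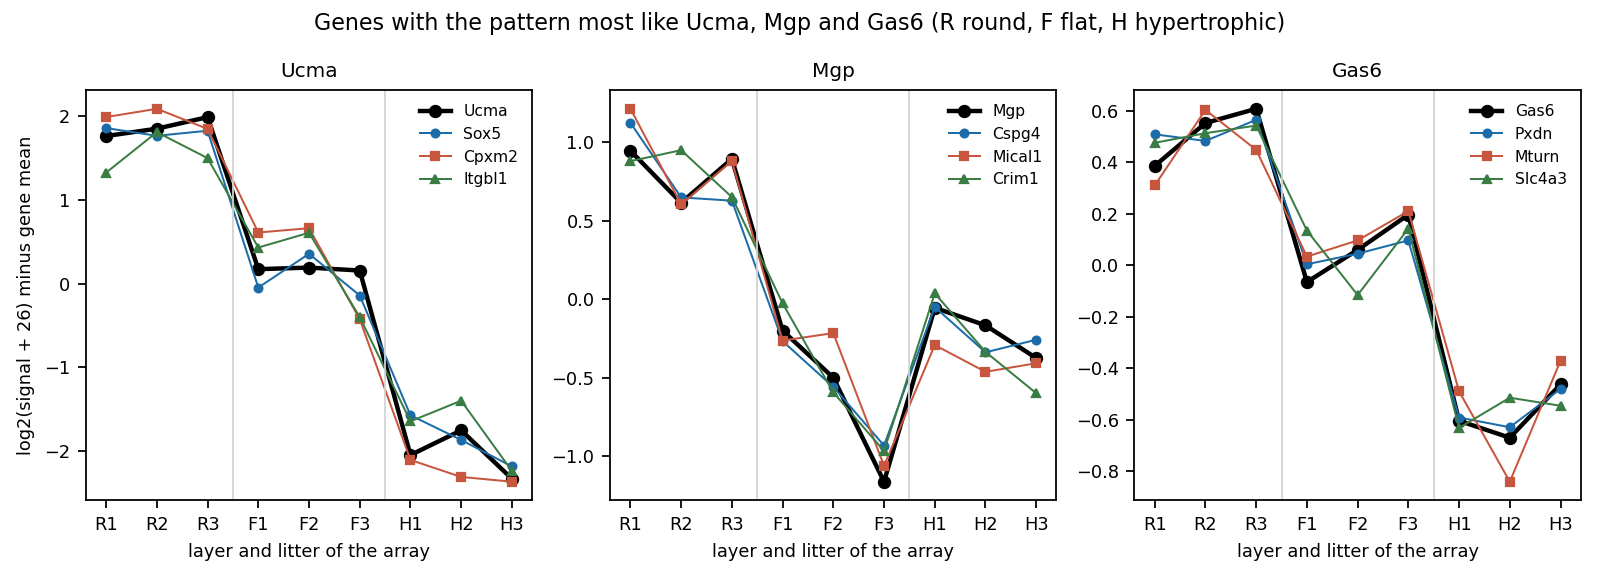
Gene-centred log2(signal + 26) on each of the 9 arrays (round, flat and hypertrophic layers of litters 1 to 3) for Ucma, Mgp and Gas6 (black) and the 3 tested genes nearest to each (colours). Sox5 stays closest to Ucma (distance 0.23), Cspg4 to Mgp (0.15) with its lowest point on the flat array of litter 3, and Pxdn to Gas6 (0.07).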

How the data were processed

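Total RNA of 9 samples (2.7 to 4.6 µg) was labelled and hybridised to Affymetrix arrays. The deposited table holds MAS5 signal intensity for 45101 probe sets, made by the authors with Affymetrix Expression Console and MAS5 per the submitters' processing notes; versions are not given in the sources used here. Every array had a trimmed mean of 500.003. Probe sets were named from GEO's platform annotation (34945 with 1 gene, 932 with several, 9160 with none, 64 controls). Of those with 1 gene, 34741 were matched to RefSeq by gene identifier and took its symbol. Signals were transformed as log2(signal + 26), 26 being the 20th percentile, and each gene took the brightest (by mean) of the probe sets that name it alone. The 11313 genes above the median probe set entered a limma fit (limma 3.58.1, R 4.3.3) with terms for layer and litter, a mean-variance trend and Benjamini-Hochberg adjustment within each comparison (threshold 0.05). The procedure was tested on simulated data. Figures were drawn with matplotlib 3.10.9.

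Replicate numbers were read as litters because the design text gives 3 litters as the triplicate and 1 litter per sample; no label states outright that a number marks a litter. Deviations from layer means correlated at 0.17 to 0.52 across genes in the 9 pairs of arrays of 1 litter and at -0.43 to 0.08 in the 18 other pairs. Deviations cancel within a layer, so positive correlations in the first set of pairs bring negative ones in the other. A batch shared by the arrays of a replicate number cannot be told apart from a litter here. The members, gene lists and alternatives were chosen with earlier results of these data known. The members and pathway genes past the threshold were named, with Bglap (not analysed here), Pros1, Axl, Tyro3, Mertk and Vkorc1l1 in any case, as were the 3 genes nearest to each member whose layer means spanned at least 1 (log2). Pathway and marker lists were written from general knowledge but with those earlier results known, so they are not independent of these data. The alternatives were 2 other constants, no filter, 2 other scalings, averaged probe sets, no litter block and arrays left out.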

Additional observations from a re-analysis of the deposited data

How the results depend on the processing

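The litter block paired arrays by replicate number. Without it, 935 genes differed between flat and round, 553 between hypertrophic and flat and 1824 between hypertrophic and round. With it these counts were 1926, 1283 and 2840. Pathway genes numbered 0, 0 and 2 without the block, against 0, 1 and 4. With 1 array left out at a time these counts ranged from 1225 to 1956, 591 to 1658 and 1770 to 2924 genes, and from 0 to 2, 0 to 1 and 1 to 4 pathway genes. Counts over all genes moved by over 1.5 times without the round array of litter 2 (1225, flat against round), without the flat array of litter 1 (698) or the hypertrophic array of litter 1, 2 or 3 (591, 692 and 732, hypertrophic against flat), and without the hypertrophic array of litter 2 (1770, hypertrophic against round). The pathway count between hypertrophic and flat was 0 with no filter on low values and 0 with arrays centred on their medians, and that between flat and round was 2 when both the litter 1 round array and the litter 3 flat array were dropped. Of 255 recomputed differences of the 5 genes, 221 kept their sign and stayed within 1.5 times their value. Dropping the filter, the litter block or an array of the layer outside the comparison leaves a difference unchanged and alters only its SE. So does averaging for Mgp and Vkorc1, which have no second probe set. Part of the 221 was therefore fixed in advance. The 34 others were differences of Vkorc1 and Ggcx, those of Gas6 with its dim probe set averaged in, and the flat to hypertrophic step of Mgp without the litter 3 flat array, alone or with the litter 1 round array also dropped (0.18 ± 0.11). The signals of Ggcx, of the second Gas6 probe set and of both Ucma probe sets in the hypertrophic layer were near or under the filter. This limits what these probe sets can show.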
